A study of Homo sapiens with 9 samples.

Results

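Interferon-stimulated genes are the genes that a cell switches on when interferon binds its receptors. A set of 42 of them, among the 61541 gene identifiers of the count tables, was taken by gene symbol and followed in human H69 cholangiocytes that had been treated with laminin 511-E8, with acetazolamide or with vehicle. The set was named by gene function and not by any value measured here. All 42 symbols were found in the tables.

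Interferons of type I and type III bind receptors on the cell surface and activate the kinases JAK1 and TYK2, which phosphorylate transcription factors of the STAT family, STAT2 among them. These factors join IRF9 in a complex that enters the nucleus and binds a short promoter element, the interferon-stimulated response element. The products of the genes it switches on sense viral nucleic acid, block viral translation and replication, tag proteins with the ubiquitin-like ISG15 and prepare antigens for display, and many of them are made at a low level in epithelial cells without added interferon. In bile ducts, cholangiocytes line the duct and meet microbial products from bile.

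The H69 line is a human cholangiocyte line immortalised with SV40 large T antigen, grown alone, without the leukocytes and stroma of a duct wall. Cells were seeded at 100000 per well and left for 48 h before treatment. They then received recombinant human laminin 511-E8 at 0.25 µg/cm2 (an integrin-binding fragment of a basement membrane laminin), acetazolamide at 10 µM (an inhibitor of carbonic anhydrases), or, as control, the vehicle DMSO, each for 48 h with a change of medium at 24 h. There were 3 libraries of poly(A)-selected RNA in each group, chosen out of 4 cultures by the integrity of their RNA. The labels name no added interferon. The libraries of a group are described as biological replicates, without days or passages, so the spread and the p-values below refer to these cultures.

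Total counts were 12529867 to 39518899 per library, and no 2 libraries of a group were alike within sampling noise. Control library 2 stood apart with 16.2% of its counts on genes of the mitochondrial genome, against 9.43% to 11.8% in the other 8 libraries, which lowers the CPM of every other gene in it. Levels below are therefore also compared after a scaling that corrects for this, and fits without that library are given where they differ. Of the cholangiocyte markers, EPCAM, KRT19, KRT7 and SOX9 had at least 10 counts in every library, whereas CFTR was near 0. The summed level of 6 leukocyte markers was at most 0.488 CPM (the count of a gene scaled to a common library total) in any library, and both markers of plasmacytoid dendritic cells, the main interferon producers of blood, were listed at 0. Of 4 fibroblast markers, COL1A1 and PDGFRB were counted in every library, with a summed fibroblast level of 41.4 to 62.6 CPM in the laminin 511-E8 libraries, 39.4 to 73.1 CPM in the acetazolamide libraries and 46.0 to 54.9 CPM in the control libraries, ranges that overlap.

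Promoter windows of the set were searched for the response element. In the RefSeq promoter table (GRCh38.p14, from 250 bases before to 50 bases after each start), 35 of the 42 genes were found, and IFIT2, IRF7, MX2, OAS2, OASL, TRIM22 and USP18 were not. The core of the response element was searched on both strands as GAAANNGAAA. It was present in 23 of 35 members (65.7%), against 1195 of 27303 genes in the table (4.38%). Stretches of 40 bases around matches are given for genes whose levels are described below, read 5′ to 3′ on the strand of the gene. The GAAA letters of the match (or TTTC, where the match lies on the other strand) are in capitals. Further copies of these letters in a stretch are left in lower case.
ISG15, chr1:1013375-1013414, plus strand: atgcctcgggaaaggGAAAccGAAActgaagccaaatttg
IFIT1, chr10:89392492-89392531, plus strand: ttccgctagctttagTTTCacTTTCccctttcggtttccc
IFIT3, chr10:89327860-89327899, plus strand: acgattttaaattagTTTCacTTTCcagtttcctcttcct
EIF2AK2, chr2:37156962-37157001, minus strand: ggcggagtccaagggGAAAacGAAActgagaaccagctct
OAS3, chr12:112938316-112938355, plus strand: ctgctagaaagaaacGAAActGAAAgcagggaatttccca
DDX60, chr4:168318816-168318855, minus strand: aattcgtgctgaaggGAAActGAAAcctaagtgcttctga
GBP1, chr1:89065311-89065350, minus strand: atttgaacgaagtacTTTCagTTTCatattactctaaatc
PARP14, chr3:122680795-122680834, plus strand: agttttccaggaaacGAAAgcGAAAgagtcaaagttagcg
DTX3L, chr3:122564317-122564356, plus strand: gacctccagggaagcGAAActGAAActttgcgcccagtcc
PARP9, chr3:122564317-122564356, minus strand: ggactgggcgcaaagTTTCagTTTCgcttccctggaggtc
IFI44L, chr1:78620269-78620308, plus strand: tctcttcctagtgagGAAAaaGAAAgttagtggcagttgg
IFI44L, chr1:78620360-78620399, plus strand: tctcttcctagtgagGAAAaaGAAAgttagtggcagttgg
BST2, chr19:17405736-17405775, minus strand: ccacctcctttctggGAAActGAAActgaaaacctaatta
RSAD2, chr2:6877617-6877656, plus strand: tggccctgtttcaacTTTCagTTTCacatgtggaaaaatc
DTX3L and PARP9 start on opposite strands and share 1 stretch, printed once in each direction. The 2 stretches of IFI44L start 91 bases apart and are the same in all 40 letters. In BST2 the letters GAAA occur 3 times in a row, so that the search found 2 overlapping matches. BST2 and RSAD2 are shown because they hold the letters and yet were close to 0 in these cells, as described below. No match was found in the windows of CMPK2, HERC6, IFI16, IFI35, IRF1, IRF9, OAS1, PSMB9, SAMD9L, STAT2, UBE2L6 and XAF1, which says only that these letters are not in these windows. The shorter pattern bound by STAT dimers, TTCNNNGAA, was present in 10 of 35 members (28.6%), against 9.38% of genes in the table.

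Most of the set was transcribed in H69 cells without added interferon, but the level differed widely between members. In all 9 libraries, 31 of 42 members had at least 10 counts, 32 passed the filter on low counts used for testing (15997 genes passed in all), and 10 did not (IRF7, IRF9, OAS2, RSAD2, CMPK2, BST2, IFI27, XAF1, PSMB8 and PSMB9). The 32 are therefore the counted members and not the whole set. Per kilobase of the longest transcript, control levels of the counted members went down from 31.98 CPM per kb for STAT2, 23.4 for EIF2AK2, 17.6 for DTX3L and 17.5 for GBP1 to 0.133 for SAMD9L. The summed level of the 42 genes was 1368, 1239 and 1395 CPM in the laminin 511-E8 libraries, 1195, 1307 and 1181 CPM in the acetazolamide libraries and 1288, 1253 and 1230.4 CPM in the control libraries. Without genes of the mitochondrial genome in the total, the sums were 1543, 1397 and 1578 CPM in the laminin 511-E8 libraries, 1339, 1444 and 1338 CPM in the acetazolamide libraries and 1437, 1497 and 1367 CPM in the control libraries, so that control library 2 became the highest control, and the laminin 511-E8 values overlapped both other groups there too. With all genes in the total, the mean was 1334 ± 83.2 CPM with laminin 511-E8, 1228 ± 69.2 CPM with acetazolamide and 1257 ± 29.2 CPM in control (SD, n = 3 each), and the laminin 511-E8 values overlapped both other groups. In such bulk libraries, a change in how many cells express a gene and in the RNA per cell cannot be told apart.

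**Figure D1:**
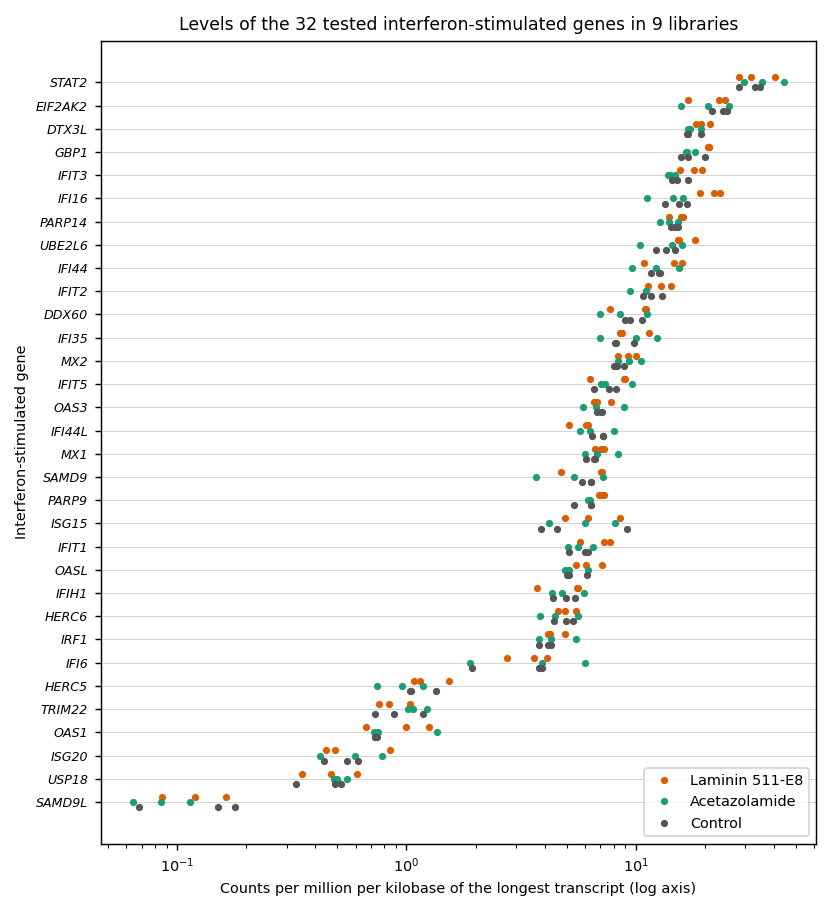
Levels of the 32 counted interferon-stimulated genes, as CPM per kilobase of the longest transcript (log axis), in 3 laminin 511-E8 (orange), 3 acetazolamide (green) and 3 control (grey) libraries, with 1 point per library. Genes are ordered by their control mean, from STAT2 at 31.98 to SAMD9L at 0.133; the groups overlap for most genes, and the 3 orange points of IFI16 stand to the right of the rest.

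Among the signal factors, 2 of 4 were counted well and 2 were close to 0. STAT2, a subunit of the response-element complex, had 104, 133 and 92.4 CPM in the laminin 511-E8 libraries, 116, 97.2 and 145 CPM in the acetazolamide libraries and 108, 92.2 and 114 CPM in the control libraries. The groups overlapped and the widest spread lay within the acetazolamide group. IRF1, a transcription factor induced mainly by interferon gamma, was at 19.5 to 28.4 CPM over the 9 libraries. It overlaps IRF1-AS1 on the other strand, which had 1184 counts against 4780, and whether counting used strand is not stated. IRF9, the DNA-binding subunit of the complex, had 7 counts in the 9 libraries together, and IRF7, which amplifies the induction of interferon genes, had 50. The genes next to IRF9 include RNF31 and IPO4, which many cell types express and which had 7 and 1 counts, and PSME1 and PSME2, which had 6117 and 5099. A low count of IRF9 is therefore given as listed and not as absence of its transcript, since neither the annotation release nor the handling of multiply mapped reads is stated in the sources at hand.

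Of the 8 RNA and DNA sensors, 7 were counted, and the groups overlapped in all of them except IFI16. EIF2AK2, which encodes the kinase PKR that stops translation on binding double-stranded RNA, had 231, 169.9 and 246 CPM in the laminin 511-E8 libraries, 207, 255 and 159 CPM in the acetazolamide libraries and 239.7, 249 and 216 CPM in the control libraries. Its lowest value was that of acetazolamide library 3 and its highest that of acetazolamide library 2, so the spread within that group covered the other groups. EIF2AK2 overlaps GPATCH11 on the other strand, which had 9385 counts against 48161, and whether counting used strand is not stated. DDX60, a helicase that aids RNA sensing, had 67.2, 46.7 and 66.6 CPM in the laminin 511-E8 libraries, 51.7, 67.7 and 42.3 CPM in the acetazolamide libraries and 64.9, 54.3 and 57.1 CPM in the control libraries. OAS3, a synthetase of the oligoadenylate that activates RNase L, had 44.2, 52.2 and 45.6 CPM in the laminin 511-E8 libraries, 44.9, 39.3 and 59.8 CPM in the acetazolamide libraries and 45.5, 47.2 and 47.7 CPM in the control libraries. For both genes the groups overlapped. Within control, the neighbouring synthetase OAS1 was at 0.731 CPM per kb, below OAS3 at 6.97. OAS2 had 38 counts in the 9 libraries together. OASL, a synthetase-like protein without that activity, was at 16.0 to 23.3 CPM and IFIH1, the sensor MDA5, at 13.3 to 21.3 CPM.

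IFI16 was the member that stood out by its values. It encodes a nuclear protein that binds DNA, including viral DNA, and lies on chromosome 1 of GRCh38 (chr1:158999968-159055155, ENSG00000163565). It had 96.0, 78.6 and 90.8 CPM in the laminin 511-E8 libraries, 59.8, 66.6 and 46.3 CPM in the acetazolamide libraries and 64.0, 68.97 and 55.6 CPM in the control libraries. Each laminin 511-E8 value lay above all 6 others, while the acetazolamide and control values overlapped.

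The 4 IFIT genes, whose products bind viral RNA and block its translation, were all counted. IFIT2 had 47.6, 42.01 and 52.5 CPM in the laminin 511-E8 libraries, 34.8, 41.0 and 40.9 CPM in the acetazolamide libraries and 39.7, 48.3 and 43.1 CPM in the control libraries. IFIT3 had 44.8, 38.9 and 48.6 CPM in the laminin 511-E8 libraries, 34.5, 36.9 and 35.0 CPM in the acetazolamide libraries and 37.5, 41.9 and 36.0 CPM in the control libraries. In both, the laminin 511-E8 values lay above the acetazolamide values and overlapped the control values. IFIT1 had 35.4, 26.3 and 33.6 CPM in the laminin 511-E8 libraries, 23.3, 29.9 and 25.8 CPM in the acetazolamide libraries and 28.4, 27.7 and 23.6 CPM in the control libraries, with overlap between all groups, and IFIT5 was at 25.2 to 38.4 CPM. IFIT1, IFIT2 and IFIT3 overlap annotated transcripts of LIPA on the other strand, which had 29263 counts, so without the strand setting part of their counts cannot be assigned with certainty.

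The enzymes that attach ISG15 were counted unevenly. ISG15 itself had 4.86, 6.68 and 3.87 CPM in the laminin 511-E8 libraries, 4.71, 3.29 and 6.37 CPM in the acetazolamide libraries and 3.57, 3.04 and 7.18 CPM in the control libraries, a spread wider than the differences between the group means. UBE2L6, the enzyme that passes ISG15 on to the ligase, had 24.3, 28.6 and 23.9 CPM in the laminin 511-E8 libraries, 22.6, 16.4 and 25.1 CPM in the acetazolamide libraries and 21.3, 19.2 and 23.2 CPM in the control libraries. Its laminin 511-E8 values lay above the control values and overlapped the acetazolamide values. HERC5, the ligase, had 3.78, 4.03 and 5.36 CPM in the laminin 511-E8 libraries, 3.36, 4.14 and 2.61 CPM in the acetazolamide libraries and 3.64, 3.69 and 4.71 CPM in the control libraries. HERC6, a relative of HERC5 that acts as the ISG15 ligase in mice, was at 14.4 to 21.2 CPM. USP18, which removes ISG15 and damps the interferon receptor, was at 0.705 to 1.29 CPM.

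Of the 10 GTPases and other effectors, 7 were counted. GBP1, a guanylate-binding GTPase that coats intracellular bacteria, had 63.5, 63.1 and 62.5 CPM in the laminin 511-E8 libraries, 50.2, 50.6 and 54.9 CPM in the acetazolamide libraries and 51.3, 60.6 and 47.5 CPM in the control libraries. The laminin 511-E8 values lay close together and above the other groups. SAMD9, an antiviral factor that restricts translation, had 48.3, 32.4 and 48.8 CPM in the laminin 511-E8 libraries, 36.7, 49.4 and 25.2 CPM in the acetazolamide libraries and 43.5, 43.8 and 39.8 CPM in the control libraries. Its neighbour SAMD9L had only 15, 13 and 46 counts in the laminin 511-E8 libraries, 16, 20 and 10 counts in the acetazolamide libraries and 33, 9 and 16 counts in the control libraries, or 0.459 to 1.28 CPM. The dynamin-like GTPases MX1 and MX2 were at 20.8 to 28.98 CPM and 32.6 to 42.7 CPM. The exonuclease ISG20 was at 2.36 to 4.78 CPM and the ubiquitin ligase TRIM22 at 2.17 to 3.66 CPM. TRIM22 overlaps TRIM5 on the other strand, which had 2466 counts against 647, so without the strand setting part of its counts cannot be assigned with certainty. RSAD2 (viperin) and CMPK2, which lie beside each other on chromosome 2, had 55 and 82 counts in the 9 libraries, and BST2 (tetherin), which holds budding virus at the membrane, had 14.

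The 3 genes of ADP-ribosylation, neighbours on chromosome 3, were all well counted. PARP14, an ADP-ribosyltransferase, had 133, 118 and 135 CPM in the laminin 511-E8 libraries, 118, 129 and 107 CPM in the acetazolamide libraries and 129, 120.3 and 125 CPM in the control libraries. DTX3L, a ubiquitin ligase that works in a complex with PARP9, had 113, 107 and 123.5 CPM in the laminin 511-E8 libraries, 98.7, 113 and 101 CPM in the acetazolamide libraries and 113, 98.1 and 98.5 CPM in the control libraries. PARP9 had 49.2, 46.6 and 47.7 CPM in the laminin 511-E8 libraries, 42.8, 41.8 and 42.1 CPM in the acetazolamide libraries and 43.1, 43.0 and 36.2 CPM in the control libraries. Only PARP9 of the 3 had laminin 511-E8 values above all 6 others. The annotations of DTX3L and PARP9 overlap at their starts on opposite strands.

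In the IFI group, IFI44L and IFI44 lie side by side on chromosome 1 and were counted well. IFI44L had 36.4, 30.1 and 35.4 CPM in the laminin 511-E8 libraries, 37.2, 47.2 and 33.5 CPM in the acetazolamide libraries and 42.2, 37.8 and 42.4 CPM in the control libraries. It was the member whose laminin 511-E8 values all lay below the control values. IFI44 was at 16.2 to 26.8 CPM, IFI35 at 8.66 to 15.3 CPM and IFI6 at 1.58 to 5.03 CPM. IFI27 had 2 counts in all, and XAF1 was listed at 0 in every library.

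The immunoproteasome subunits PSMB8 and PSMB9, which replace constitutive subunits of the proteasome when peptides are cut for display, had 0 and 1 counts in the 9 libraries. Both lie among the HLA genes on chromosome 6. From the first to the last gene named HLA on that chromosome (chr6:29722775-33087201), 71 of 137 protein-coding genes (51.8%) were listed at 0 in every library, against 18.5% of the 19741 other protein-coding genes. Genes of that stretch that most cells express were also near 0, such as VARS1, a tRNA synthetase with 6 counts, LSM2, a splicing factor with 1, and FLOT1 with 7. The values of PSMB8 and PSMB9, like those of the HLA genes, therefore cannot be read as levels.

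Gene GC content moved with the libraries, and the members divided along it. Across the 32 counted members, whose GC content was 36.0% to 63.4% (median 44.2%), the deviation of a library from the mean of each gene correlated with GC content at r = -0.47, 0.77 and -0.69 in laminin 511-E8 libraries 1, 2 and 3, at 0.52, -0.85 and 0.82 in acetazolamide libraries 1, 2 and 3, and at -0.62, -0.54 and 0.39 in control libraries 1, 2 and 3. These are correlations across genes, which are not independent replicates. Over 15737 genes the sign was the same in each of the 9 libraries. In acetazolamide library 3, the 16 members of higher GC content, such as ISG15, IFI35 and UBE2L6, stood on average 0.23 above their means (log2). The 16 of lower GC content, such as SAMD9, IFIT5 and IFI44L, stood at -0.24 on average there. In acetazolamide library 2 the averages were -0.19 and 0.13. The spread of most members within the acetazolamide group ran with GC content, and its part in the comparisons is given below as values with and without GC correction.

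**Figure D2:**
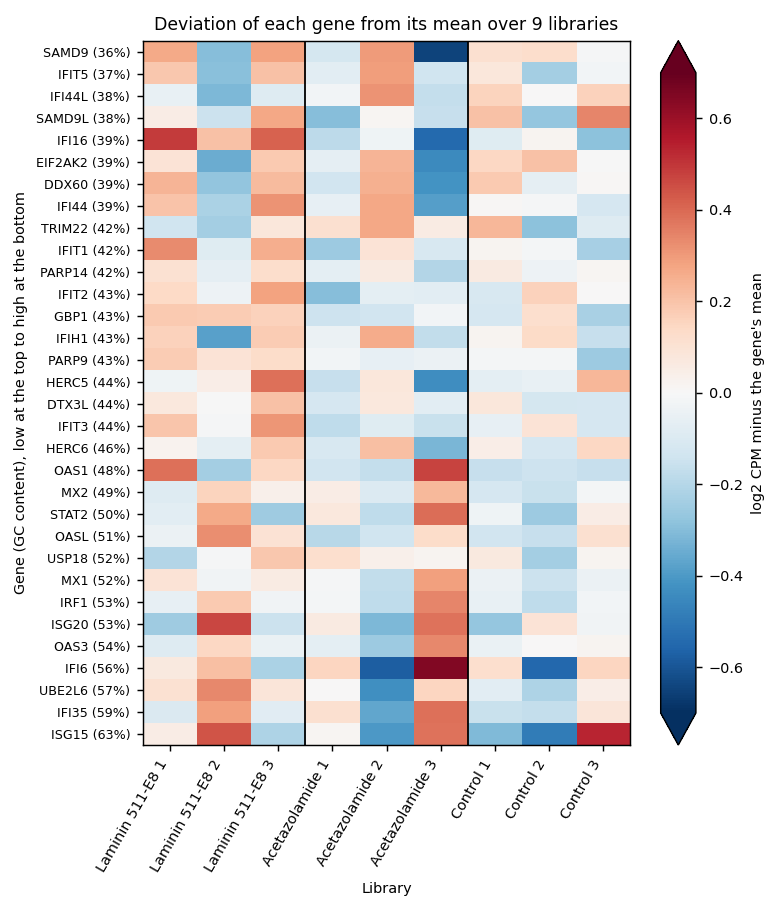
Deviation of the 32 counted interferon-stimulated genes (rows, GC content in brackets, low at the top) from their mean over 9 libraries (columns, laminin 511-E8, acetazolamide and control from left to right), in log2 CPM, red above and blue below the mean. In acetazolamide library 3 the upper rows are blue and the lower rows red. The averages there are -0.24 and 0.23 over the genes of lower and of higher GC content. Acetazolamide library 2 shows the reverse, and IFI16 is red in the 3 laminin 511-E8 libraries.

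The first comparison asked whether laminin 511-E8 moved the set relative to control. IFI16 had a log2 fold change of 0.46, the IFIT and ISG15-conjugation genes had small positive values, IFI44L had a negative value, and none of the 32 counted members passed the test. With edgeR's quasi-likelihood test and Benjamini-Hochberg adjustment over 15997 genes, 0 members and 0 of all genes (0%) were called, and at an unadjusted p under 0.05 there was 1 member, IFI16, against 444 genes (2.78%). DESeq2 called 21 genes and limma voom 0, with 0 members in either. The median of the members was 0.10, with 26 positive and 6 negative values, against a median of 0.00 over all genes, 49.1% of which were positive. By role, positive values were found for 2 of 2 signal factors, 4 of 4 IFIT genes, 5 of 5 ISG15-conjugation genes and 3 of 3 ADP-ribosylation genes. Signs were mixed for the sensors (4 of 7 positive), the GTPases and other effectors (5 of 7) and the IFI group (3 of 4). Among the ISG15-conjugation genes, HERC6 was at 0.005 (SE 0.17).

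The 6 members with the smallest p in this comparison were as follows, each with edgeR's log2 fold change. IFI16 had 0.46 (SE 0.17, unadjusted p = 0.0249, adjusted p = 1.00). IFI44L had -0.29 (SE 0.16, unadjusted p = 0.103, adjusted p = 1.00). GBP1 had 0.21 (SE 0.13, unadjusted p = 0.140, adjusted p = 1.00), and PARP9 had 0.20 (SE 0.12, unadjusted p = 0.144, adjusted p = 1.00). These were also members whose CPM values did not overlap between the groups, of which there were 5 higher in the laminin 511-E8 libraries (IFI16, GBP1, PARP9, UBE2L6 and MX1), or 15.6% of the counted members against 5.48% of all genes tested, and 1 lower (IFI44L), or 3.12% against 3.03%. UBE2L6 had 0.24 (SE 0.16, unadjusted p = 0.154, adjusted p = 1.00), and IFIT1 had 0.23 (SE 0.17, unadjusted p = 0.214, adjusted p = 1.00). When CPM were scaled by TMM, which corrects for composition, the members without overlap were 2 higher (IFI16 and UBE2L6), or 6.25% against 4.69% of all genes, and 1 lower, or 3.12% against 3.96%. The separation of GBP1, PARP9 and MX1 rested on the scaling.

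**Figure D3:**
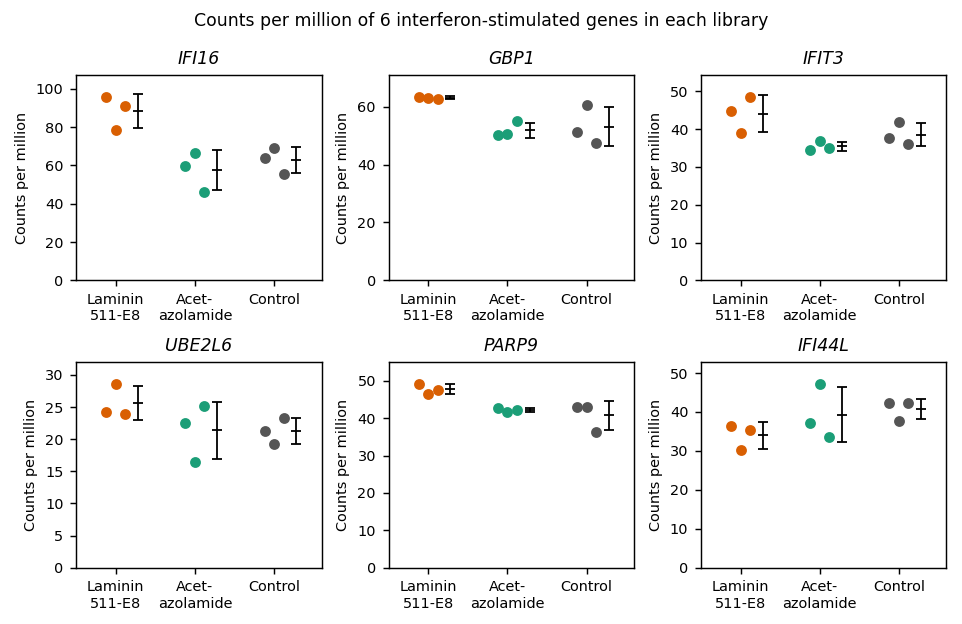
CPM of IFI16, GBP1, IFIT3, UBE2L6, PARP9 and IFI44L in the laminin 511-E8, acetazolamide and control libraries, with 1 point per library and the mean ± SD beside the points (n = 3). IFI16 in the laminin 511-E8 libraries (96.0, 78.6 and 90.8) lies above all other points, and IFI44L in the laminin 511-E8 libraries (36.4, 30.1 and 35.4) lies below the control points.

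When the GC trend of each library was removed (local regression, 15737 genes), the standard error of IFI16 was 0.10 in place of 0.17 and the gene was called as higher. After this correction 50 genes were called (0.318%), 16 higher and 34 lower, and 1 of 32 members. IFI16 had a log2 fold change of 0.55 (SE 0.10, unadjusted p = 0.000115, adjusted p = 0.0440), by edgeR's quasi-likelihood test with Benjamini-Hochberg adjustment. At an unadjusted p under 0.05 there were 5 members, all higher (IFI16, UBE2L6, IFI44, IFIT1 and PARP9), or 15.6%, against 1168 genes (7.42%). IFI44L was at -0.18 after correction (SE 0.09), against -0.29 without it. UBE2L6 had 0.22 (SE 0.08, unadjusted p = 0.0164, adjusted p = 0.493) and IFI44 0.20 (SE 0.08, unadjusted p = 0.0273, adjusted p = 0.586). The IFI16 call was lost on removal of 6 of the 9 libraries. Its adjusted p by edgeR was 0.230, 0.180 and 0.103 without laminin 511-E8 libraries 1, 2 and 3, 0.0881 without acetazolamide library 1, and 0.241 and 0.159 without control libraries 1 and 3, with fold changes of 0.48 to 0.66 over all 9 removals. With the replicate number as a block in the corrected fit, 0 genes were called.

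Laminin 511-E8 was next compared with acetazolamide, the other treatment of the same duration. IFI16 again had the largest value among the 6 members with the smallest p, followed by HERC5, IFIT3 and IFIT2, and no member passed the test. By edgeR's quasi-likelihood test with Benjamini-Hochberg adjustment, 0 members and 0 of 15997 genes (0%) were called, and at an unadjusted p under 0.05 there were 3 members, all higher (IFI16, IFIT3 and GBP1), against 344 genes (2.15%). DESeq2 called 19 genes, none a member, and limma voom 0. The median of the members was 0.14, with 27 positive and 5 negative values, against 0.00 over all genes.

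Among the 6 smallest p of this comparison, IFI16 had 0.65 (SE 0.18, unadjusted p = 0.00398, adjusted p = 1.00) by edgeR. IFIT3 had 0.35 (SE 0.14, unadjusted p = 0.0341, adjusted p = 1.00), and IFIT2 had 0.32 (SE 0.15, unadjusted p = 0.0605, adjusted p = 1.00). GBP1 had 0.32 (SE 0.13, unadjusted p = 0.0392, adjusted p = 1.00). UBE2L6 had 0.30 (SE 0.16, unadjusted p = 0.0860, adjusted p = 1.00), and HERC5 had 0.42 (SE 0.23, unadjusted p = 0.0950, adjusted p = 1.00). The CPM of 5 members did not overlap and were higher in the laminin 511-E8 libraries (IFI16, IFIT3, IFIT2, GBP1 and PARP9), or 15.6% against 2.11% of all genes, and 0 were lower, against 3.84%. With TMM-scaled CPM there were also 5 higher, with UBE2L6 in place of IFIT2, against 3.01% of all genes, and 0 lower, against 3.11%, so the separation of IFIT2 rested on the scaling. After GC correction 29 genes were called (0.184%), 7 higher and 22 lower, with IFI16 as the 1 member, at 0.58 (SE 0.10, unadjusted p = 7.48e-05, adjusted p = 0.0436). At an unadjusted p under 0.05 there were 8 members, 7 higher and 1 lower, against 835 genes (5.31%). UBE2L6 followed with 0.37 (SE 0.08, unadjusted p = 0.000601, adjusted p = 0.148), and IFI44L was the member on the negative side with -0.26 (SE 0.09, unadjusted p = 0.0121, adjusted p = 0.637). The IFI16 call was lost without laminin 511-E8 library 1, 2 or 3 (adjusted p by edgeR of 0.268, 0.156 and 0.100), without acetazolamide library 1, 2 or 3 (0.159, 0.118 and 0.105) and without control library 1 (0.0907), and with the replicate block, where 0 genes were called. Both laminin 511-E8 comparisons use the same 3 laminin 511-E8 libraries, so the IFI16 values are not independent of each other.

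In acetazolamide against control no member was called under any alternative tried. By edgeR's quasi-likelihood test with Benjamini-Hochberg adjustment, 0 members and 0 of 15997 genes (0%) were called, and at an unadjusted p under 0.05 there were 0 members against 291 genes (1.82%). DESeq2 called 7 genes and limma voom 0, again with 0 members. The median of the members was -0.05, with 12 positive and 20 negative values, against 0.01 over all genes. No member had CPM values without overlap, against 5.22% of all genes higher and 1.18% lower, nor did any with TMM-scaled CPM, against 3.21% and 2.1%. The smallest p belonged to the thinly counted SAMD9L with -0.65 (SE 0.41, unadjusted p = 0.149, adjusted p = 0.999). IFIT2 had -0.23 (SE 0.15, unadjusted p = 0.160, adjusted p = 0.999), and IFIT3 had -0.18 (SE 0.14, unadjusted p = 0.232, adjusted p = 0.999). HERC5 had -0.29 (SE 0.23, unadjusted p = 0.246, adjusted p = 0.999). PARP14 had -0.14 (SE 0.12, unadjusted p = 0.266, adjusted p = 0.999), and EIF2AK2 had -0.24 (SE 0.21, unadjusted p = 0.266, adjusted p = 0.999). After GC correction PARP14 was at -0.072 (SE 0.052) and EIF2AK2 at -0.093 (SE 0.073). Without control library 2 IFIT2 was at -0.11 and IFIT3 at -0.075 (uncorrected fit). After GC correction the median was -0.01, 0 genes were called (0%), and 1 member had an unadjusted p under 0.05 against 630 genes (4%), namely IFIT5 with 0.25 (SE 0.10, unadjusted p = 0.0291, adjusted p = 0.973). A p above the threshold does not show that the levels were equal, and the standard errors of the members named here, 0.12 to 0.41 without GC correction, set the size of difference that these libraries could resolve.

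**Figure D4:**
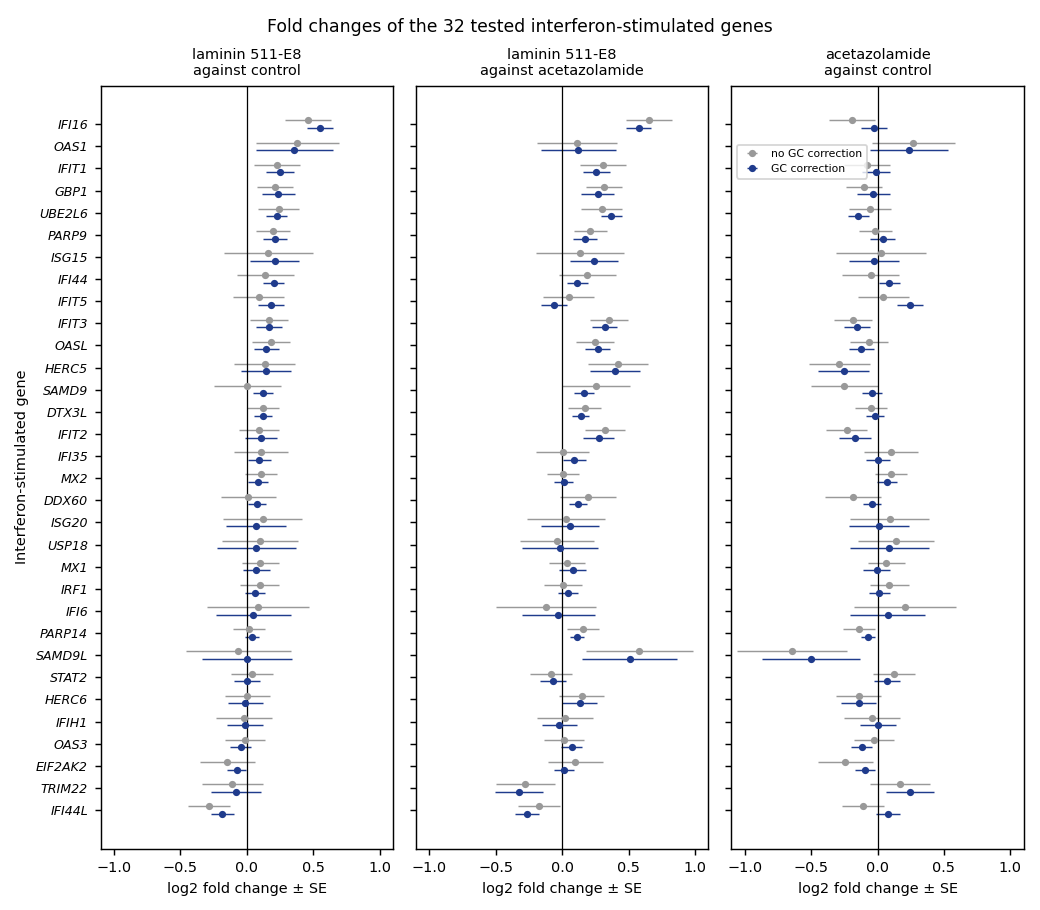
Log2 fold changes ± SE of the 32 counted interferon-stimulated genes for laminin 511-E8 against control (left), laminin 511-E8 against acetazolamide (middle) and acetazolamide against control (right), without GC correction (grey) and with it (blue). IFI16 lies at 0.46 and 0.55 in the left panel and at 0.65 and 0.58 in the middle panel, most blue bars are shorter than the grey ones, and most values of the left and middle panels lie to the right of 0.

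The rest of the interferon pathway was read from a list of 55 further genes, of which 42 passed the filter. Of the ligands, IFNB1, IFNG, IFNK, IFNA1, IFNA2, IFNL2 and IFNL3 were listed at 0, IFNL1 had 1 count, and IFNE, an interferon of epithelial surfaces, was at 8.13 to 13.0 CPM. Among receptor chains, IFNAR1 was at 106 to 210.0 CPM and IFNGR1 at 171 to 274 CPM, while IFNGR2 and IL10RB, which overlap other annotated genes on chromosome 21, were listed at 0.108 to 1.61 CPM and 0.506 to 1.21 CPM. The kinases JAK1 and TYK2 and the transducer STAT3 were well counted, whereas the chemokines CXCL10 and CXCL11 had 2 and 1 counts in all. The DNA-sensing adaptor STING1 was listed at 0. As for IRF9, that value is given as listed and not as absence of the transcript. By edgeR's quasi-likelihood test, 0 of the 42 were called in any of the 3 comparisons without GC correction. At an unadjusted p under 0.05 there were 2 of 42 in each laminin 511-E8 comparison (SOCS3 and GBP2). Of all genes tested, 2.78% were under it against control and 2.15% against acetazolamide. In acetazolamide against control there were 0 of 42, against 1.82% of all genes. DESeq2 called SOCS3 against acetazolamide. The next smallest p belonged to IFNAR2 in laminin 511-E8 against control (log2 fold change 0.20, SE 0.12) and to GBP3 in laminin 511-E8 against acetazolamide (0.26, SE 0.16). In acetazolamide against control the smallest p belonged to IFNE (0.23, SE 0.15), IRF3 (0.31, SE 0.23) and JAK1 (-0.12, SE 0.09), with 18 positive and 24 negative values in all. After GC correction there were 7 of 42 at an unadjusted p under 0.05 in laminin 511-E8 against control, against 7.42% of all genes. There were 4 of 42 in laminin 511-E8 against acetazolamide (5.31% of all genes) and 4 of 42 in acetazolamide against control (4% of all genes). SOCS3, a feedback inhibitor of JAK signalling, was then called in both laminin 511-E8 comparisons (1 of 42 in each, against 0.318% and 0.184% of all genes). SOCS3 had 12.8, 18.04 and 11.9 CPM in the laminin 511-E8 libraries, 8.61, 6.18 and 9.58 CPM in the acetazolamide libraries and 7.96, 7.21 and 8.62 CPM in the control libraries. The laminin 511-E8 values lay above all others. Its log2 fold change after GC correction was 0.79 (SE 0.10, unadjusted p = 4.66e-06, adjusted p = 0.00806) against control and 0.91 (SE 0.10, unadjusted p = 1.01e-06, adjusted p = 0.00798) against acetazolamide, with Benjamini-Hochberg adjustment over all genes by edgeR. The call against control was lost without laminin 511-E8 libraries 1 and 3 and control library 1 (adjusted p by edgeR of 0.0685, 0.0534 and 0.0514), and that against acetazolamide without laminin 511-E8 libraries 1 and 3 and acetazolamide library 1 (0.0846, 0.0570 and 0.0515). With the replicate number as a block in the corrected fit, the adjusted p of SOCS3 by edgeR was 0.0728 against control and 0.0578 against acetazolamide, and neither call was kept. GBP2, a relative of GBP1, had 5.66, 5.26 and 5.14 CPM in the laminin 511-E8 libraries, 3.04, 3.98 and 4.001 CPM in the acetazolamide libraries and 3.90, 4.34 and 3.35 CPM in the control libraries, again without overlap, but was not called (adjusted p by edgeR of 0.554 against control and 0.411 against acetazolamide after GC correction).

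Across the 9 libraries, the genes outside the set whose levels ran most like the mean of the standardised members were ETS1 (r = 0.97), PLXNC1 (0.94), LCDR (0.93), LYN (0.90) and MCU (0.89), out of the 13465 well-counted genes searched. This likeness is a description over 9 libraries that share the GC trend above. The members themselves did not run together in these log2 CPM, which were not corrected for the GC trend. Over 465 pairs of the 31 members with at least 10 counts in every library the median r was 0.09. It went from -0.96 for STAT2 and EIF2AK2 (GC content 50.2% and 38.7%) to 0.96 for DDX60 and PARP14 (39.1% and 42.4%). Whether the members run together once the GC trend is removed was not tested.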

How the data were processed

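RNA of H69 cholangiocytes was measured in 9 libraries, 3 for each of laminin 511-E8, acetazolamide and control. The deposited values are raw counts per gene. The submitters' notes on processing name Trimmomatic 0.39, FastQC 0.11.9, HTSeq 0.11.0 and HISAT2 2.2.1, with the build GRCh38, but neither an annotation release, a strand setting nor a rule for multiply mapped reads is stated in the sources at hand. Names were found for 61369 of 61541 identifiers in the reference gene tables and for 159 more in GENCODE release 29. Every entry was a gene and every column matched a library.

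Counts were divided by the library total (12529867 to 39518899) to give CPM. A count of 0 allows up to 3 counts, that is 0.0759 to 0.239 CPM, which covers counting error only. Levels of different genes were compared after division by the longest annotated transcript in kb. The test was the quasi-likelihood test of edgeR 4.0.16 (R 4.3.3), fitted robustly to all 9 libraries after TMM scaling, on 15997 genes kept by filterByExpr, with Benjamini-Hochberg adjustment over all genes and a threshold of 0.05. The SE given with an edgeR log2 fold change is its absolute value divided by the square root of the F statistic of the test. It is thus derived from the test and was not estimated separately. The paper names no such test for these libraries. Alternatives were DESeq2 1.42.0, limma 3.58.1 (voom), RLE and upper-quartile scaling, other filters, fits on 6 libraries, fits without each library in turn, the replicate number as a block, and removal of each library's trend with GC content (local regression, span 0.3, 15737 genes). The test was also run on counts simulated from these libraries with 200 changed genes. Another simulation, for the fits with and without GC correction, used the same dispersion for every gene and the fitted GC trends of the libraries. It cannot show how the correction performs on the real counts, and no result here rests on either simulation. Python 3.11.15, pandas 2.3.3 and matplotlib 3.10.9 were used for levels and plots.

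Fold changes are given for the 6 members with the smallest unadjusted p in each comparison and for any member called, and values in every library for those and for the 10 members with the highest CPM in control. From the pathway list the called genes, or else the 3 with the smallest p, are named. The set, the lists, the rules and the alternatives were chosen with earlier results of these data known. Removal of single libraries from the GC-corrected fit and TMM-scaled CPM were added after seeing the data. Promoters came from RefSeq (GRCh38.p14). Individual values of some genes on the marker and pathway lists are not reported here.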

Additional observations from a re-analysis of the deposited data

How the results depend on the processing

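Without GC correction no member was called in any comparison under any alternative, single-library removal included, where the counts were 0 to 0. Over all genes, the counts for laminin 511-E8 against control, laminin 511-E8 against acetazolamide and acetazolamide against control were 21, 19 and 7 with DESeq2 and 5, 2 and 3 with no filter beyond 1 count in all, and 0 with limma voom, other scalings, the stricter filter and the replicate block. GC correction gave 1, 1 and 0 members and 50, 29 and 0 genes. In the corrected fit the replicate block gave 0 members and 0 genes in each comparison, and removal of single libraries gave 0 to 1 members and 0 to 60 genes against control (17, 0, 20, 6, 1, 23 and 21 without acetazolamide library 1, laminin 511-E8 libraries 1, 2 and 3 and control libraries 1, 2 and 3), 0 to 1 members and 0 to 29 genes against acetazolamide, and 0 members and 0 to 1 genes for acetazolamide against control. Between groups, the deviations of libraries of the same number correlated at r from -0.80 to 0.35, and those of different numbers at -0.58 to 0.81. These values come from log2 CPM that were not corrected for the GC trend. They cannot show whether libraries of the same number were handled together, so the calls lost under the replicate block stand as lost. The 18 uncorrected fold changes of single members kept their sign under every alternative, but most changed in size. Against control, laminin 511-E8 gave GBP1 0.11 (without control library 3) to 0.36 (without control library 2), PARP9 0.089 to 0.28 (the same libraries), IFIT1 0.12 (without control library 3) to 0.37 (without laminin 511-E8 library 2) and IFI44L -0.36 to -0.18 (GC correction). Against acetazolamide, HERC5 was 0.21 (without laminin 511-E8 library 3) to 0.59 and UBE2L6 0.14 (without acetazolamide library 2) to 0.40. For acetazolamide against control, EIF2AK2 was -0.43 to -0.07, HERC5 -0.46 to -0.13 and PARP14 -0.22 to -0.059 (each without acetazolamide libraries 2 and 3), IFIT2 -0.34 to -0.11 and IFIT3 -0.27 to -0.075 (both ends nearest 0 without control library 2), and SAMD9L -0.92 (without control library 2) to -0.43 (without acetazolamide library 1). The corrected IFI16 value for acetazolamide against control, near 0, ranged from -0.10 to 0.082 without single libraries, turning to 0.033 without acetazolamide library 2 and to 0.082 without control library 2. With TMM-scaled CPM, 2 members in place of 5 lay above control without overlap (6.25% against 4.69% of all genes). The median of the members stayed positive in both laminin 511-E8 comparisons (0.06 to 0.16 against control and 0.08 to 0.23 against acetazolamide). Why GC correction changes the calls was not tested. The 10 members under the filter on low counts were not testable at this depth.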
